A study of Rattus norvegicus with 63 samples.

Results

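The transcription factor STAT5A was followed across the livers of 63 male Wistar Hanover rats by 2 of the 158 analytes of a reverse-phase protein array, total STAT5A and STAT5A phosphorylated at Y694 (P-Y694). Both were taken by name, as every analyte whose symbol is STAT5A. The protein had been singled out with its fold changes against control animals already known from these data, so the comparisons of its forms between treated and control animals are descriptions and carry no test. On this platform, drops of many liver lysates sit side by side and are stained with an antibody to a single protein or modification. The level is a relative fluorescence intensity (RFI), a linear value in arbitrary units that is not comparable between antibodies.

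STAT5A belongs to a family of latent transcription factors. Growth hormone, prolactin and several cytokines bind receptors that activate Janus kinases (JAKs), JAK2 above all for growth hormone, and the kinase phosphorylates a conserved tyrosine of STAT5, Y694 in STAT5A. The phosphorylated protein pairs up, enters the nucleus and activates its target genes, while phosphatases and SOCS proteins end the signal. In the liver of the male rat, growth hormone arrives in pulses, and tyrosine phosphorylation of STAT5 rises and falls with them. STAT5B, the closest relative of STAT5A and the more abundant form in the liver, carries an equivalent tyrosine, and antibodies to the phosphorylated site often see both proteins.

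Each of 15 compounds had been given to 3 animals, and 6 sets of 3 control animals had received a vehicle only, methylcellulose (MC) or corn oil (CO). Control set 1 (MC) stood beside acetamide (AA, 3000 mg/kg per day for 14 days), dehydroepiandrosterone (DHEA, 600 mg/kg, 14 days), methylcarbamate (Mcarb, 400 mg/kg, 14 days), methapyrilene (MPy, 60 mg/kg, 7 days), thioacetamide (TAA, 19.2 mg/kg, 7 days) and Wy-14643 (Wy, 60 mg/kg, 3 days). Set 2 (MC) stood beside cefuroxime (CFX, 250 mg/kg, 14 days) and nifedipine (Nif, 3 mg/kg, 14 days), and set 5 (MC) beside diethylstilbestrol (DES, 10 mg/kg, 3 days), ethionine (ETH, 200 mg/kg, 14 days) and piperonylbutoxide (PBO, 1200 mg/kg, 3 days). Set 6 (MC) stood beside phenobarbital (PB, 14 days, dose not in the labels). Set 3 (CO, 7 days) stood beside C.I. Direct Black (CIDB, 146 mg/kg, 7 days) and dimethylnitrosamine (DMN, 4 mg/kg, 7 days), and set 4 (CO, 14 days) beside cyproterone acetate (CPA, 100 mg/kg, 14 days). The labels give 14 days for every MC control, so by the labels 5 compounds given for 3 or 7 days have controls of a longer duration. The study's methods, by contrast, describe the control groups as matched in time, and the labels do not resolve this. AA, DES, DHEA, ETH, Mcarb, MPy, PB and PBO are labelled non-genotoxic carcinogens, CIDB and DMN genotoxic carcinogens, CFX and Nif non-carcinogens, and CPA, TAA and Wy undefined. By the study's methods the treated animals had been picked for visible liver changes, so their means describe selected animals.

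The lysates held hepatocyte proteins. Of 9 hepatocyte marker symbols, 8 were on the array, as 13 analytes with median RFI from 0.191 to 70.3, while albumin was not among the measured analytes. Of 9 symbols for other liver cells and proliferation only MKI67 was measured, so a change in the makeup of the tissue could not be followed and cannot be told apart from a change per cell. The median RFI over all analytes ranged from 0.425 to 0.882 between animals, the highest being control animal 1 of set 6, the set of PB. Against a second set of values that the authors deposited for the same animals, the deviations of 45 treated animals had a Spearman correlation of 0.923 for P-Y694 but only 0.501 for total STAT5A. For total STAT5A the best other analyte, RPS6_2, reached 0.496, so the deposited values tie total STAT5A to its name less firmly than P-Y694. Control animals were not part of this check. Between the deposits their P-Y694 kept its order in sets 3 and 4, and set 1 kept its high animal. Sets 2, 5 and 6 changed order. Set 2 had 0.81, 0.505 and 0.19 RFI but log2 ratios of 0, 0.82 and -0.54. Set 5 had 0.239, 0.579 and 0.292 RFI but 0.70, 0 and -2.12. Set 6 had 0.271, 0.272 and 0.157 RFI but -0.17, 1.08 and 0. Fold changes against these sets rest on the labels of the RFI values, and the cause was not tested.

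The signal of total STAT5A was steady, while that of P-Y694 varied widely from animal to animal. The 2 forms were read with different antibodies, and how much of either spread came from the measurement was not tested. Total STAT5A ranged from 1.28 to 3.27 RFI over the 63 animals, with a median of 2.09. P-Y694 ranged from 0.127 to 0.81 RFI with a median of 0.251, a 6.37-fold span against 2.55-fold for the total. Within groups of 3 identically treated animals, the SD of log2 RFI was 0.67 for P-Y694, the seventh highest of the 158 analytes. It was 0.24 for total STAT5A, close to the median of 0.26 over all analytes. Within-group differences made up 62.2% of the log2 variance of P-Y694 and 59.8% of that of the total, beside a median of 60.8% over all analytes.

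P-Y694 spanned a wide range in control and in treated animals alike. Controls ran from 0.127 to 0.81 RFI with a median of 0.291, and treated animals from 0.141 to 0.689 with a median of 0.231. In control set 2 alone, the 3 animals had 0.81, 0.505 and 0.19 RFI, a 4.27-fold span. Sorted by level, the values left their widest inner gap between 0.356 and 0.442 RFI, and 17 of 63 animals lay above it. These high animals were 6 of 18 controls, spread over 4 of the 6 sets, and 11 treated animals from 9 of the 15 compounds. Among the treated they were 8 of 24 animals given a non-genotoxic carcinogen, 0 of 6 given a genotoxic carcinogen, 1 of 6 given a non-carcinogen and 2 of 9 given a compound of undefined class. ETH was the single group with all 3 animals above the gap, and CFX, CIDB, DMN, PB, PBO and Wy had none.

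**Figure D1:**
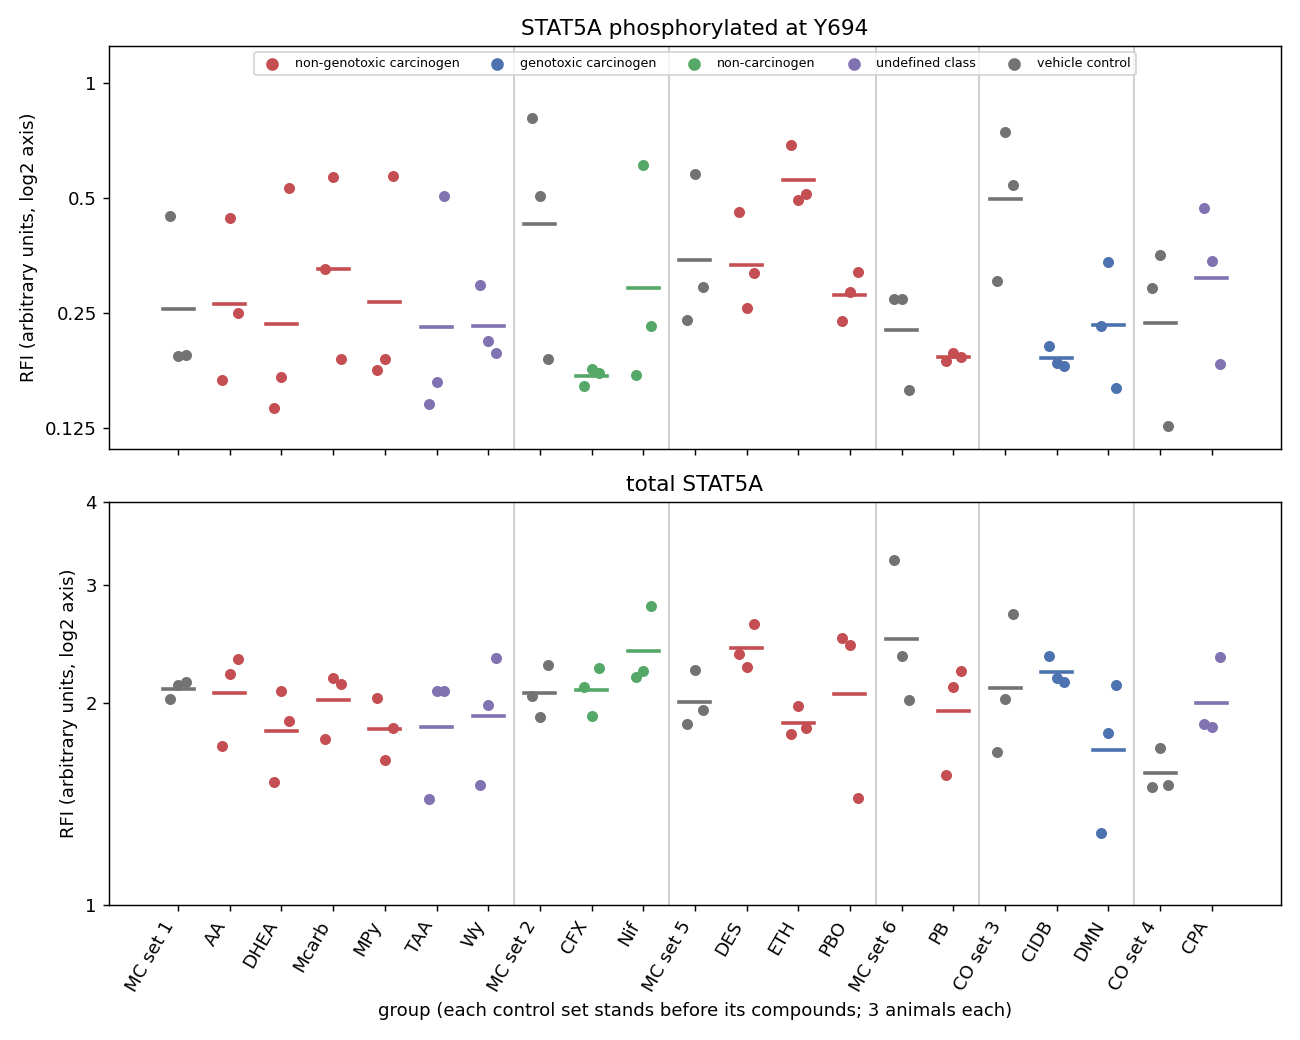
RFI (arbitrary units, log2 axis) of P-Y694 (top) and of total STAT5A (bottom) in each animal, with each control set before the compounds that share it. Points are animals, bars are geometric means and colours are compound classes. P-Y694 scatters within most groups, including controls, whereas ETH is high and CFX, CIDB and PB are low in all 3 animals.

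By RFI, P-Y694 was high in ETH. The 3 animals given ethionine, an analog of methionine, had 0.689, 0.495 and 0.513 RFI, beside 0.239, 0.579 and 0.292 in control set 5. Of these, the lower pair lay below the highest control, and the groups overlapped. The log2 fold change was 0.70 (SE 0.53, n = 3 against 3), or 0.88 (SE 0.42) against all 12 MC controls. Total STAT5A in the same animals was 1.80, 1.98 and 1.84 RFI against 1.86, 2.24 and 1.96, a log2 fold change of -0.11 (SE 0.19). Leaving out the control animal with 0.579 RFI raised the P-Y694 value to 1.08, and leaving out the one with 0.239 lowered it to 0.44. In the deposited log2 matrix ETH had 0.37, -0.08 and -0.19 beside 0.70, 0 and -2.12 in set 5. Its log2 fold change there was 0.51, and the lower pair of ETH animals lay below the control median. In the other groups of set 5, DES had 0.459, 0.257 and 0.317 RFI and PBO 0.238, 0.284 and 0.321, against a control range of 0.239 to 0.579.

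By RFI, P-Y694 was low in CIDB, CFX and PB, and evenly so. The 9 animals of these groups held 0.161 to 0.205 RFI, and 5 of the 18 control animals were at or below 0.205. P-Y694 was a dim analyte, with a median RFI ranked 119 of 158, and its lowest value was 0.127. Whether a floor of the signal evened these groups was not tested. In the deposited log2 matrix PB was uneven, with -0.48, -1.14 and -1.75, while CIDB had -2.54, -2.60 and -2.82. CIDB, an azo dye, had 0.205, 0.185 and 0.181 RFI beside 0.303, 0.745 and 0.542 in control set 3, so all 3 animals lay below all 3 controls. The log2 fold change was -1.38 (SE 0.53), and total STAT5A was 2.35, 2.18 and 2.15 RFI against 1.70, 2.03 and 2.72, a log2 fold change of 0.08. CFX, a cephalosporin antibiotic, had 0.161, 0.179 and 0.175 RFI beside 0.81, 0.505 and 0.19 in set 2, again with no overlap and with a log2 fold change of -1.32 (SE 0.53). Without the control with 0.81 RFI this value was -0.85, and without the control with 0.19 RFI it was -1.90. In the deposited log2 matrix the lack of overlap was lost. There CFX had -0.39, -0.20 and -0.24 beside 0, 0.82 and -0.54 in set 2, with a log2 fold change of -0.37. Total STAT5A in CFX was 2.12, 1.91 and 2.26 RFI against 2.05, 1.91 and 2.28 in the controls, a log2 fold change of 0.01. PB, the classical inducer of drug-metabolising enzymes, had 0.187, 0.197 and 0.192 RFI beside 0.271, 0.272 and 0.157 in set 6, which overlapped, with a log2 fold change of -0.24 (SE 0.53).

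The choice of control animals set the size of these values. By RFI, CIDB and CFX were the only compounds in which P-Y694 lay wholly outside its control set. Over the 158 analytes all 3 animals lay below the set for 6.96% in CIDB and 5.7% in CFX. Their sets, 3 and 2, had the highest mean P-Y694 of the 6 control sets, 0.530 ± 0.221 and 0.502 ± 0.310 RFI (mean ± SD, n = 3). Against all controls of the vehicle the log2 fold changes shrank to -0.85 (SE 0.46) for CIDB and -0.83 (SE 0.42) for CFX, and both groups overlapped the controls. DMN, an alkylating nitrosamine given beside the same set 3, had 0.231, 0.341 and 0.159 RFI, and its log2 fold change moved from -1.10 to -0.56. PB moved the other way, from -0.24 to -0.66, since set 6 had the lowest mean of the control sets, 0.234 ± 0.066 RFI (SD, n = 3). In none of the 30 pairs of a form and a compound did all 3 treated animals lie outside the range of all controls of the vehicle.

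**Figure D2:**
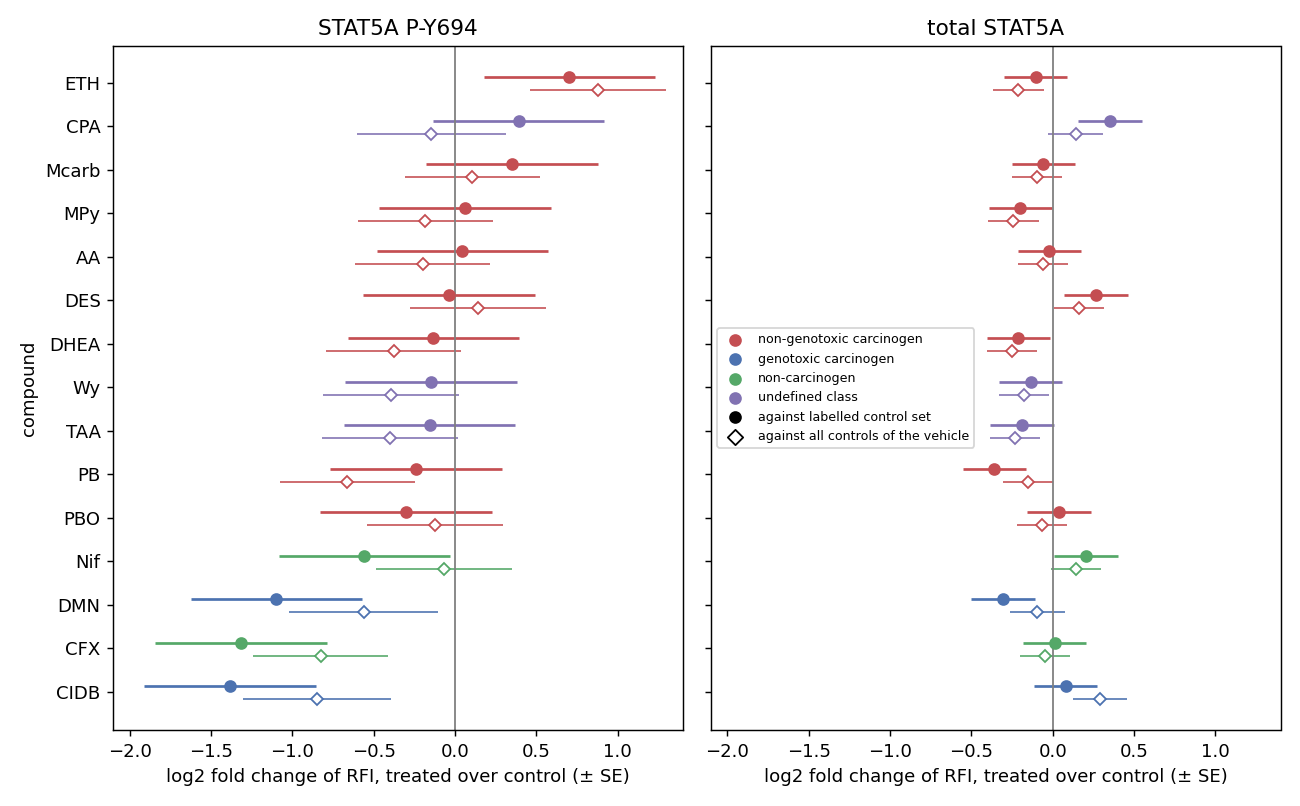
Log2 fold change (± SE of the fit over all 63 animals) of P-Y694 (left) and total STAT5A (right) for 15 compounds, against the labelled control set (filled) and against all controls of the vehicle (open). P-Y694 runs from -1.38 in CIDB to 0.70 in ETH, and the values of CIDB, CFX and DMN move towards 0 with the wider reference. Total STAT5A stays within -0.36 and 0.35.

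In the remaining groups P-Y694 crossed its controls. Set 1 itself held 0.45, 0.193 and 0.194 RFI. Beside it, AA had 0.167, 0.442 and 0.251 RFI, DHEA 0.141, 0.17 and 0.531, and Mcarb 0.326, 0.567 and 0.189. MPy had 0.178, 0.189 and 0.57 RFI and TAA 0.145, 0.165 and 0.508. Thus AA, DHEA, Mcarb, MPy and TAA, like their controls, each held 1 animal above 0.44, whereas the PPAR-alpha agonist Wy had 0.296, 0.212 and 0.197 RFI and none. The log2 fold changes of the 6 compounds of set 1 ran from -0.16 to 0.35, all smaller than their SE of 0.53. Nif, a calcium channel blocker, had 0.172, 0.611 and 0.232 RFI against set 2, a log2 fold change of -0.56 that came to -0.07 against all MC controls. CPA, a synthetic steroid, had 0.47, 0.342 and 0.184 RFI beside 0.29, 0.356 and 0.127 in set 4, a log2 fold change of 0.39 that became -0.15 against all CO controls.

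Ordered by geometric mean, P-Y694 was highest in ETH, control set 3 and control set 2, and lowest in CFX, CIDB and PB. Control sets thus took the ranks just below the highest compound. The mean log2 RFI ran from -0.84 in ETH to -2.55 in CFX. Between neighbours in the order of the 21 groups, all 20 gaps were smaller than the within-group SD, the largest being 0.31 on the log2 scale. Sorting makes neighbouring gaps small, so this count cannot show whether groups far apart in the order differ. For total STAT5A all 20 neighbouring gaps were likewise smaller than its SD, with at most 0.12, and the same limit holds. Total STAT5A was highest in control set 6 and lowest in control set 4, so both ends of its order were controls.

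Total STAT5A lay wholly above its control set in DES and CPA. In DES, a synthetic estrogen, the animals had 2.37, 2.27 and 2.63 RFI against 1.86, 2.24 and 1.96, a log2 fold change of 0.26 (SE 0.19). In CPA they had 1.86, 1.85 and 2.35 RFI against 1.501, 1.715 and 1.51, a log2 fold change of 0.35 (SE 0.19). Over all 158 analytes, all 3 animals lay above the control set for 10.1% in DES and 18.4% in CPA. In PB total STAT5A was 1.56, 2.12 and 2.24 RFI against 3.27, 2.36 and 2.03, a log2 fold change of -0.36 that came to -0.17 without the control animal with 3.27 RFI. Brightness of whole lysates moved with these values, since the 158 analytes had a median log2 fold change of 0.13 in DES, 0.23 in CPA and -0.29 in PB. With each animal centred on its own median, the total came to 0.15 in DES, 0.13 in CPA and 0.05 in PB, and 9 of the 15 compounds kept its sign. P-Y694 kept its sign in 12 of 15 under the same centring, with -1.43 in CIDB, -1.26 in CFX and 0.63 in ETH.

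Relative to total STAT5A, P-Y694 stayed low in CIDB, CFX, DMN and Nif and high in ETH, but not low in PB. The total in this ratio is the form that the deposited values tie less firmly to its name. The difference of log2 P-Y694 over total from the control set was -1.46 in CIDB, -1.33 in CFX, -0.79 in DMN, -0.76 in Nif and 0.81 in ETH. It was 0.12 in PB, where P-Y694 itself had -0.24, and 0.04 in CPA (P-Y694 0.39) and -0.30 in DES (P-Y694 -0.04). The SD of this log2 ratio between the 3 animals was 0.03 in CIDB, 0.16 in CFX and 0.25 in PB. It ran from 0.31 in control set 6 to 1.17 in control set 2 among the controls, and was 0.98 in DHEA.

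By class, P-Y694 was lower than the control set in both genotoxic carcinogens and in both non-carcinogens. Their log2 fold changes were -1.38 and -1.10, and -1.32 and -0.56, with CIDB and DMN sharing set 3 and CFX and Nif sharing set 2. The 8 non-genotoxic carcinogens ranged from -0.30 to 0.70, with 4 above and 4 below 0. The 3 compounds of undefined class ranged from -0.16 to 0.39. Against all controls of the vehicle the signs were 3 higher and 5 lower for the non-genotoxic carcinogens, while both genotoxic carcinogens and both non-carcinogens stayed lower, with -0.85 and -0.56, and -0.83 and -0.07, and the undefined compounds were 0 higher and 3 lower. The value of Nif was -0.09 against set 2 without the control with 0.81 RFI, and 0.47 in the deposited log2 matrix. In that matrix PBO, PB and DES had -1.49, -1.42 and -0.78, below CFX at -0.37 and below Nif, unlike by RFI. The other non-genotoxic carcinogens, AA, DHEA, ETH, Mcarb and MPy, were higher than their controls there. CIDB and DMN stayed lowest, with -2.65 and -1.60. By RFI, total STAT5A showed no split by class. Its log2 fold changes ran from -0.36 to 0.26 in non-genotoxic carcinogens. They were -0.31 and 0.08 in genotoxic carcinogens and 0.01 and 0.21 in non-carcinogens.

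Control sets were also compared with each other. The spread in these tests was estimated over all 63 animals, treated ones included, and the control values had entered the fold changes with which the protein was chosen. Between CO sets 3 and 4, P-Y694 differed by 1.07 on the log2 scale (SE 0.53), as large as its change in DMN, with an adjusted p of 0.417 in the limma fit over 158 analytes. Set 3 had 0.303, 0.745 and 0.542 RFI and set 4 had 0.29, 0.356 and 0.127, which overlapped. Set 3 was labelled 7 days and set 4 14 days, so set and duration cannot be told apart here. Between MC sets 2 and 6 the difference was 0.91 (limma adjusted p = 0.724), and over the 8 control contrasts P-Y694 was called in 0 by limma with adjustment, with 1 at an unadjusted p below 0.05. Total STAT5A was also called in 0 of 8, with 2 unadjusted p below 0.05. Total STAT5A was lower in corn oil than in methylcellulose by -0.25 (SE 0.12, limma adjusted p = 0.117), a direction that turned to 0.03 when animals were centred on their medians. In that vehicle contrast 15.2% of all analytes were called, whereas it was 0.633% between MC sets 5 and 6 and 0% in the other 6 contrasts of control sets. P-Y694 differed between the vehicles by 0.17 (SE 0.32, limma adjusted p = 0.681). The CO controls mix 7 and 14 days while all MC controls are labelled 14 days, so the vehicle contrast is mixed with duration. Each contrast was also fitted separately with only the control animals that it compares. P-Y694 was again called in 0 of 8 contrasts by limma, with 2 at an unadjusted p below 0.05, and total STAT5A in 0 of 8, with 0. In these smaller fits both forms had the same SE in each contrast with set 6, for example 0.32 between sets 2 and 6. The p-values there rest on a spread shared across analytes and not on that of P-Y694 itself. Nothing in the labels says that control animals of a set were processed apart. In the fit over 63 animals, p-values measure the spread between animals within all groups.

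Within groups, P-Y694 moved little with the amount of STAT5A. Expressed as deviations from their group means over the 63 animals, P-Y694 and total STAT5A had a Pearson r of 0.07 (Spearman rho 0.04). Of the 152 other analytes measured above 0 in every animal, the closest to P-Y694 was STAT3 P-Y705, the activating tyrosine site of STAT3, with r = 0.40 (rho 0.39). The value was 0.38 with animals centred on their medians and 0.35 without the 2 animals whose P-Y694 lay farthest from the group mean. JAK2 P-Y1007/Y1008, the activated kinase, came to r = 0.17, JAK1 P-Y1022/Y1023 to 0.24 and the feedback inhibitor SOCS3 to 0.09, beside a median of 0.10 over all partners. Total STAT5A, by contrast, followed most other proteins, with a median r of 0.46 that fell to 0.13 after centring, with HRAS at 0.79 and JAK2 at 0.76. These correlations share lysates and arrays, the partners were picked by their values, and they stand as descriptions.

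**Figure D3:**
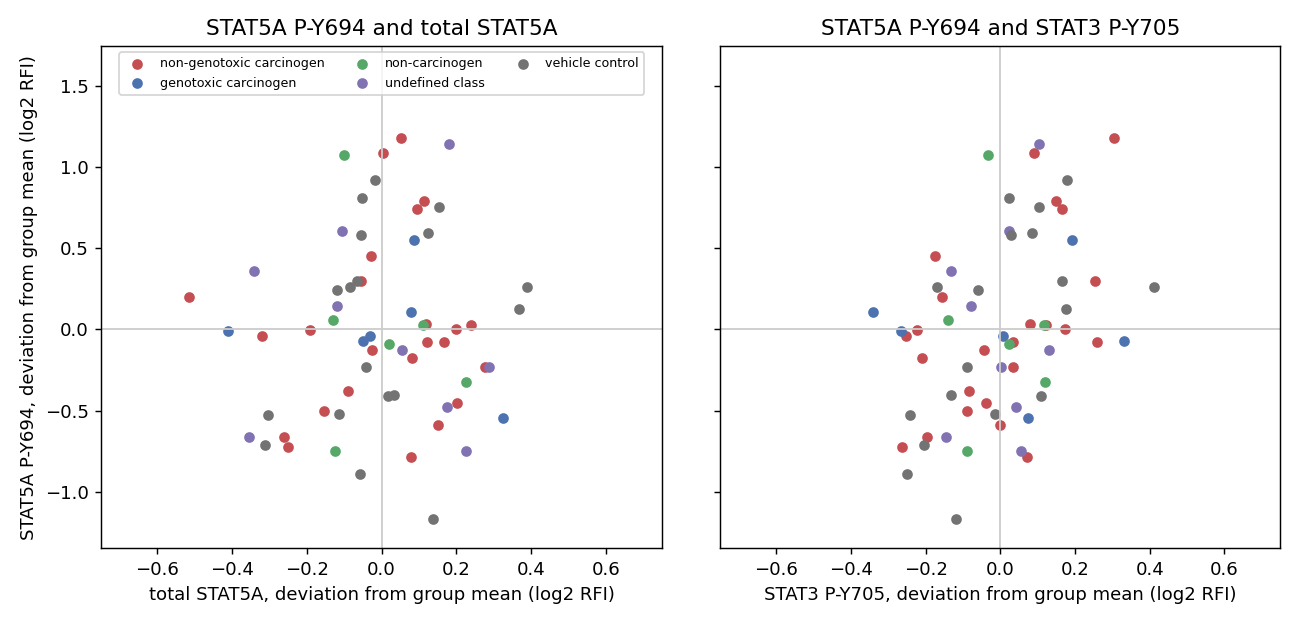
Deviation of P-Y694 from its group mean (log2 RFI) against the deviation of total STAT5A (left) and of STAT3 P-Y705 (right) in 63 animals, coloured by compound class. P-Y694 spreads over a wide vertical range at any level of total STAT5A (r = 0.07) and rises loosely with STAT3 P-Y705 (r = 0.40).

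Across compounds, the pattern of total STAT5A was most like those of JAK1 (r = 0.88 over 15 log2 fold changes), phosphorylated NFKBIA at S32 (0.86) and RXRA (0.85). These fell to 0.59, 0.62 and 0.55 once animals were centred on their medians. For P-Y694 the most alike were GAPDH (0.61) and MAPK14 P-T180/Y182 (0.59), which came to 0.64 and 0.62 after centring. No analyte passed 0.7 with P-Y694, against 43 with total STAT5A, and the 2 forms themselves had r = 0.06. Compounds of a control set share its animals.

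The rest of the pathway was followed with 23 analytes of 13 symbols, tested against the labelled control sets across all analytes. Of 345 comparisons, 6 were called higher and 4 lower at an adjusted p below 0.05, or 2.9%, beside 3.16% over all analytes. The median log2 fold change of the 23 was -0.0012, beside -0.03 over all. The calls fell on STAT3, STAT3 P-Y705, BCL2L1, MCL1, MET and MYC. By limma no form of the kinases JAK1 and JAK2 was called (1 of 60 comparisons at an unadjusted p below 0.05), nor were the receptors EGFR, ERBB2 and IGF1R (6 of 105) or the negative regulators PTPN11 and SOCS3 (2 of 30). JAK2 P-Y1007/Y1008 ranged from -0.41 in PB to 0.30 in Nif over the 15 compounds, with limma adjusted p of at least 0.178 and 1 unadjusted p below 0.05. In ETH, where P-Y694 was highest, none of the 23 was called by limma (1 at an unadjusted p below 0.05), beside 1.27% of all analytes.

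CIDB held the largest group of these calls, 4 higher and 0 lower, beside 4.43% of all analytes called higher in CIDB. STAT3, the acute-phase member of the family, stood at 6.18, 5.68 and 7.15 RFI in CIDB and at 1.60, 1.77 and 2.67 in control set 3. All 3 animals lay far above all controls, with a log2 fold change of 1.69 (SE 0.22) and a limma adjusted p of 5.8e-08. Its phosphorylated form P-Y705 stood at 0.53, 0.674 and 0.844 RFI against 0.298, 0.35 and 0.387, a rise of 0.97 (SE 0.17, limma adjusted p = 2.55e-05). Both rises were called in all 13 alternatives. BCL2L1 and MCL1, which protect cells from apoptosis and are encoded by genes that STAT5 can activate, rose by 0.92 and 0.91 (limma adjusted p = 0.00422 for both). Without control animal 4 of set 3 the values were 0.74 and 0.72 and missed the threshold (adjusted p = 0.0754 and 0.0759), as did BCL2L1 without CIDB animal 2 (0.80, adjusted p = 0.0573). In the same livers STAT5A P-Y694 lay below its controls, and 3 of 13 hepatocyte marker analytes, GLUL, CYP3A4_2 and HNF4A, fell by 3.89, 1.53 and 0.54 on the log2 scale, while the other 10 were not called and 3.16% of all analytes were called lower. Their part in these values was not tested.

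**Figure D4:**
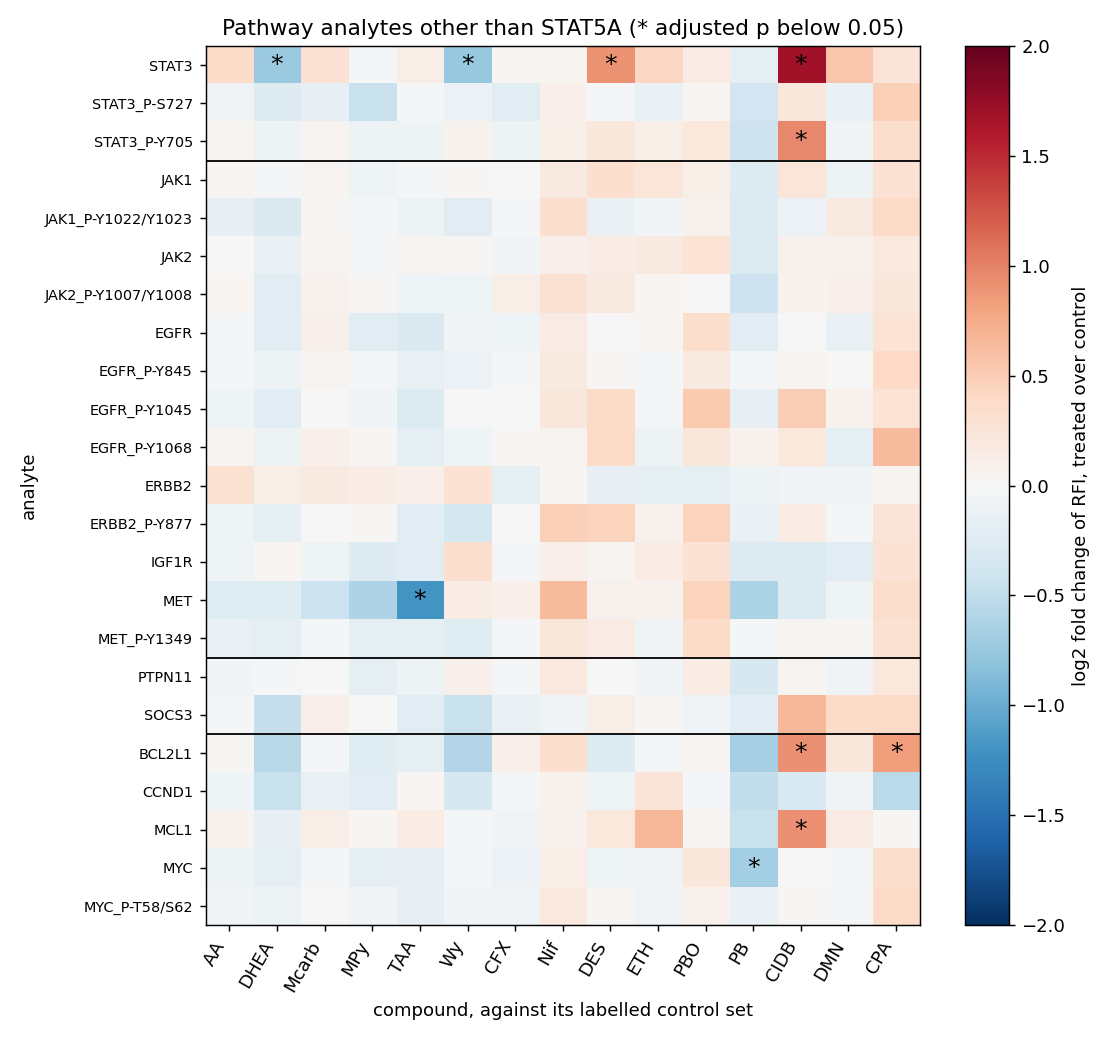
Log2 fold change (colour) of 23 pathway analytes other than STAT5A, in rows, for 15 compounds against the labelled control sets, in columns. Asterisks mark the 10 comparisons with an adjusted p below 0.05 in limma, 4 of them in CIDB, and horizontal lines separate STAT proteins, kinases and receptors, negative regulators and products of target genes.

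STAT3 moved in other compounds too. STAT3 rose in DES, with 2.72, 3.00 and 3.80 RFI against 1.84, 1.80 and 1.46 in set 5, a log2 fold change of 0.89 (SE 0.22, limma adjusted p = 0.00898), where 0.633% of all analytes were called higher. It fell by 0.75 in DHEA (1.01, 1.13 and 1.34 RFI) and by 0.75 in Wy (1.09, 1.14 and 1.22), both against 1.64, 2.27 and 1.94 in set 1, with limma adjusted p of 0.0293 and 0.0192 and with 5.06% and 7.59% of all analytes called lower. STAT3 P-Y705 was not called in any of the 3. With 1 animal left out, the 3 STAT3 changes kept most of their size while some lost the call. In DES the value was 0.75 without DES animal 3 and 0.79 without control 9 of set 5 (limma adjusted p = 0.128 and 0.0924). In DHEA it was -0.63 to -0.75 without DHEA animals 1 or 2 or controls 5 or 6 of set 1 (0.0669 to 0.209). In Wy it was -0.64 to -0.75 without Wy animals 1 or 2 or the same controls (0.0516 to 0.144).

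In the remaining 3 calls, 1 animal set much of the size. BCL2L1 rose in CPA by 0.84 (1.29, 1.30 and 1.30 RFI against 1.03, 0.862 and 0.427 in set 4, limma adjusted p = 0.0199), where 5.06% of all analytes were called higher, and without the control with 0.427 RFI it was 0.46 (adjusted p = 0.528). Without any of the 3 CPA animals the value stayed at 0.84, with an adjusted p of 0.0506 to 0.0654. The receptor MET fell in TAA by 1.195 (0.466, 0.489 and 0.095 RFI against 0.583, 0.73 and 0.607 in set 1, limma adjusted p = 0.0431, 3.16% of all analytes called lower), and without the animal with 0.095 RFI by 0.42 (adjusted p = 0.797). Without any of the controls of set 1 the value was -1.26 to -1.10, with an adjusted p of 0.088 to 0.241. MYC fell in PB by 0.68 (0.407, 0.382 and 0.398 RFI against 0.946, 0.548 and 0.488 in set 6, limma adjusted p = 0.0482, 3.16% of all analytes called lower), and by 0.39 without the control with 0.946 RFI (adjusted p = 0.718). Without any PB animal the value was -0.70 to -0.65, with an adjusted p of 0.0696 to 0.141.

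Hepatocyte markers had 10 calls higher and 11 lower in 195 comparisons, or 10.8%, beside 3.16% over all analytes, and 7 of these calls came from the single analyte CYP3A4_2. Both CYP2E1 analytes, CYP2B6_2 and CYP3A4_1 had none. Higher calls fell on CYP3A4_2 (5 compounds), CYP2B6_1 (3), CYP1A2_1 and CYP2C8 (1 each). Lower calls fell on GLUL (4 compounds), HNF4A, CYP2B6_3 and CYP3A4_2 (2 each) and CYP1A2_1 (1). In CFX, whose P-Y694 was the lowest of all groups, neither a pathway analyte nor a hepatocyte marker was called by limma, with 0 at an unadjusted p below 0.05 in either list, and the share of all 158 analytes called was 0%.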

How the data were processed

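For each animal, the authors deposited an RFI intensity of 158 analytes on a linear scale, for which, by the study's methods, local background had been removed, array-wide differences levelled and replicate spots averaged. The authors also deposited a matrix of log2 ratios to the median of control animals. By the study's methods these ratios came from blank-corrected signals. Signals below that of the fluorescent detection antibody alone counted as missing and were imputed. The matrix served as an alternative only, since its columns carry offsets that the labels do not explain.

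RFI at or below 0 (25 of 9954 values, 0 for STAT5A) was set to missing and the rest was log2 transformed without further scaling. Models with 21 group means over 63 animals were fitted with limma 3.58.1 (R 4.3.3, lmFit and eBayes). Two-sided p-values were adjusted per comparison by Benjamini-Hochberg over its 158 analytes, and a call needed an adjusted p below 0.05. Summaries and plots used Python 3.11.15. The fit was tested on simulated data.

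The members and the pathway lists were chosen with earlier results of these data known. Named were both STAT5A forms, each listed analyte called in at least 1 compound, and the 3 analytes most correlated with each form over compounds, except some items that are not reported here and are left out of the pathway counts; HRAS, RPS6_2, STAT3 P-Y705 within groups and analytes described as not called were named after their values were seen. The animal number pairs CPA with control set 4 (correlations of deviations 0.31, 0.22 and 0.16), as a hint from the data and not from the labels, and a fit with this block changed no call. Arrays have no sequencing depth, so precision depends on the number of animals. 0 matrix columns lacked a sample. Centring of the within-group correlations was chosen after seeing the data.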

Additional observations from a re-analysis of the deposited data

Results flagged for a closer look

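In some compounds all 3 animals lay on the same side of the mean log2 level of their control set, with compounds in both directions, and the differences between compounds were not tested. For P-Y694 the 3 animals were all above in ETH (log2 fold change 0.70) and all below in CIDB (-1.38), CFX (-1.32), DMN (-1.10), PBO (-0.30) and PB (-0.24). For total STAT5A they were all above in CPA (0.35), DES (0.26), Nif (0.21) and CIDB (0.080), and all below in PB (-0.36), DHEA (-0.21), MPy (-0.20), TAA (-0.19) and ETH (-0.11).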

How the results depend on the processing

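Leaving out single animals carried the fold change of P-Y694 across 0 in 9 of 15 compounds and that of total STAT5A in 6 of 15, for example in AA (P-Y694 from -0.33 to 0.45), TAA (-0.73 to 0.25) and MPy (-0.48 to 0.47). Under the other settings 71 of 77 values of P-Y694 and 73 of 77 of total STAT5A moved by less than the SD between animals of a group, a wide margin for P-Y694. Some of the 77 could not move. Replacing values at or below 0 touched 0 STAT5A values, and the balanced replicate block leaves the fold changes of CPA and PB as they are. The counts thus overstate the stability. With animals centred on their medians, total STAT5A came to 0.048 in PB and 0.063 in TAA. In the deposited log2 matrix it came to -0.42 in PBO and -0.24 in CIDB, and P-Y694 to -0.78 in DES, -1.42 in PB, -1.49 in PBO, -2.65 in CIDB, -0.37 in CFX and 0.47 in Nif. The matrix uses blank-corrected signals and the authors' own references and offsets, and the cause of these moves was not tested. Without PBO animal 3 total STAT5A in PBO was 0.30, within a range of -0.10 to 0.30 over the animals left out.

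Corn oil minus methylcellulose turned sign for total STAT5A with centring (0.025) and in the matrix (0.058), and for P-Y694 in the matrix (-0.50). Leaving out CO set 3 animal 6 made the total difference pass the threshold (-0.34, limma adjusted p = 0.0454), so that 1 control contrast was called instead of 0; over the control animals left out in turn the difference ranged from -0.34 to -0.17. The pathway count of 10 calls became 7 when only the animals of each comparison were fitted, and ran from 7 to 14 over 63 animals left out in turn. Centring ended the calls of STAT3 in DHEA (limma adjusted p = 0.0811), MYC in PB (0.259) and MET in TAA (0.0765). The matrix ended these (0.0927, 0.971 and 0.976) and BCL2L1 in CPA (0.0611), and all controls of the vehicle ended MYC in PB (0.306) and BCL2L1 in CPA (0.0534). Fitting the animals of the comparison alone ended STAT3 in DES (0.0549), MYC in PB (0.237), BCL2L1 in CPA (0.476) and MET in TAA (0.333), which was also lost with values at or below 0 replaced (0.0563). With the replicate block for CPA and PB the count stayed at 10. The block is balanced, so it could not move the fold changes of the STAT5A forms. They were 0.35 and 0.39 for total and P-Y694 in CPA, and -0.36 and -0.24 in PB. Animal numbers did not pair PB with set 6 (correlations 0.03, 0.01 and 0.07).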
